A study of Mus musculus with 20 samples.

Results

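The 39 genes described here encode enzymes of the urea cycle and of amino acid breakdown in the liver. They were taken by name from a fixed list, not by a cutoff on their values in these data. The list was chosen with earlier results of these data known. All 39 were found among the 16115 genes measured. Each was well covered: the lowest count of any of the 39 in any library was 149, for Afmid, and none was lost to a filter on low counts.

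Amino acids in excess of what the body needs for protein are taken apart mainly in hepatocytes. Their nitrogen is passed by transaminases and deaminations to ammonia and aspartate, and the urea cycle joins both into urea, while the carbon skeletons feed glucose, ketone and energy metabolism. The urea cycle is strongest in hepatocytes around the portal vein, and ammonia that escapes it is caught as glutamine around the central vein. Many of these enzymes are known to be induced by fasting, glucagon and glucocorticoids, and their RNAs are among the more abundant ones of liver.

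RNA of livers of male mice, collected after 18 months of treatment, was sequenced in 5 groups. Wild-type mice without treatment gave 4 libraries. Mice carrying the genotype labelled d2-/-, mutants of Fancd2, were untreated (3 libraries) or received metformin (labelled met, 3 libraries), oxymetholone (labelled oxm, 5 libraries) or both drugs together (labelled met+oxm, 3 libraries). Fancd2 acts in the Fanconi anaemia pathway of DNA crosslink repair, metformin lowers blood glucose, and oxymetholone is an anabolic androgen given for marrow failure. All treated mice were mutants, so neither drug was given to wild types, and the sources used here do not state the strain background, the age at the start, the dose or the route. Of 20 labelled samples 18 were analysed here, which leaves out replicate 1 of the untreated mutants and replicate 2 of metformin. The labels do not say whether each library came from its own animal, so p-values measure the spread between these samples. Fancd2 RNA was not analysed here, and the genotype was therefore not checked against it.

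Libraries held 20.2 to 32.7 M counts, which gives every one of the 39 genes a counting error far below the spread between libraries. Of 7 hepatocyte markers 6 were measured (Tf was not), with a summed level of 35127 to 94163 CPM (counts scaled to library size) in all libraries, as fits the labelled tissue. No marker of any list was at 0 in all libraries of a group. Combination replicate 3 and metformin replicate 3 stood apart, at median correlations of 0.916 and 0.926 to the other libraries. Combination replicate 3 bears on much of what follows. It was the lowest of the 18 libraries for 33 of the 39 genes, against 13.9% of all genes, and the main differences for the combination are given with and without it. In bulk liver RNA, fewer hepatocytes and less RNA per hepatocyte cannot be told apart.

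Expression is given in CPM after scaling of each library with edgeR's TMM factors. Values are listed by replicate, which for untreated mutants means 2, 3 and 4 and for metformin 1, 3 and 4. Differences are log2 differences with their standard error from edgeR's quasi-likelihood fit over all 18 libraries. A gene was called where its p, adjusted over all 16115 genes by Benjamini-Hochberg, was under 0.05. No call was made for any of the 39 genes in any of 9 tests.

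In wild-type liver the levels spanned a wide range. Per kilobase of exon the order was led by Gnmt, the main methylation sink of liver, with 3951 CPM per kb. Next came Ass1 (1887 CPM per kb) and Arg1 (1335 CPM per kb) of the urea cycle, Hpd of tyrosine breakdown (994 CPM per kb) and Mat1a (789 CPM per kb), which makes S-adenosylmethionine. The lowest were Acmsd (16.5 CPM per kb), Afmid (6.39 CPM per kb) and Mccc1 (3.297 CPM per kb), a subunit of the leucine-breakdown carboxylase. Neighbours in this order often lay within each other's spread, as with Mat1a, whose level was 2736 ± 1056 CPM (SD, n = 4) before division by length.

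The promoters of 3 members are shown because these genes carried large or better supported differences below. Amt had the smallest p with oxymetholone, and Tat and Got1 had large differences of opposite sign in the genotype and the oxymetholone comparisons. Each line gives the 250 bases before the annotated start, read 5′ to 3′ on the gene's strand, from RefSeq on GRCm38.p6. Amt lies at chr9:108296655-108296904 (plus strand), Tat at chr8:109990186-109990435 (plus strand) and Got1 at chr19:43524606-43524855 (minus strand). Capitals mark CCAAT or its reverse complement ATTGG.
Amt: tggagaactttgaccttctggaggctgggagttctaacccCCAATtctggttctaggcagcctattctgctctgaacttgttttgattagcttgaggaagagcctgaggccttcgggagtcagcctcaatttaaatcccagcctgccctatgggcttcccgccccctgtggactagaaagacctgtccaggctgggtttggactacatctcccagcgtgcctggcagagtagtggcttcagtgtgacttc
Tat: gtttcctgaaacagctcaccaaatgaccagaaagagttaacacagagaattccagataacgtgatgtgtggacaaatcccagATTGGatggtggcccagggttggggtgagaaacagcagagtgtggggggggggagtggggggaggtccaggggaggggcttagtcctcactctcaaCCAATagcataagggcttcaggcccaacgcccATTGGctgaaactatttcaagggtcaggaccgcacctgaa
Got1: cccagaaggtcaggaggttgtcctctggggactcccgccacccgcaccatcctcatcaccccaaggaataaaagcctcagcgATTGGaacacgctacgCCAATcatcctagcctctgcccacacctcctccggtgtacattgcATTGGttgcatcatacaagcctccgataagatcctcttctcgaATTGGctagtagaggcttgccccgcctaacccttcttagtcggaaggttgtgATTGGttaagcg

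Of the 39 genes 31 were in the RefSeq promoter table. Motifs were searched on both strands of these and of all 32851 windows of the same length. A member was counted if any of its windows matched, while the share is of single windows, so the units differ. The cAMP response element TGACGTCA occurred in 0 of 31, against 1.55% of windows. The glucocorticoid half-site TGTTCT was in 3 (Agxt, Bckdhb and Haao, against 16.1% of windows), the full palindromic glucocorticoid response element in 0 (0.00913%), and the C/EBP pattern TTGCNNAA in 3 (Aass, Hgd and Prodh2, against 9.56%). CCAAT, searched after the sequences had been seen, was in 16 of 31, against 33.8% of windows. Tat held it 3 times and Got1 5 times. These are matches of letters and show no binding.

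The first comparison asked what loss of Fancd2 changed in untreated liver. Of the 39 genes 29 had a lower mean level in untreated mutants (74.4%, against 52.2% of all genes), with a median log2 difference of -0.28 against -0.02 for all genes. None was called (0 of all 16115 genes, 0%), and 0 of 39 had an unadjusted p under 0.05, against 2.58% of all genes. Tyrosine breakdown and transamination lay lowest: all 4 tyrosine genes and all 3 genes of glutamine and transamination had negative differences, with medians of -0.61 and -0.52. The 5 branched-chain genes were also all below 0, with a median of -0.32, but they ran from -0.45 to -0.006, which is practically 0. The 39 genes move together in a library, so the direction counts are not 39 separate observations.

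Tat, the transaminase that starts tyrosine breakdown, had the largest difference. Its level was 606, 424, 1230.1 and 1155 CPM in the wild types and 393, 417 and 286 CPM in untreated mutants. All 3 mutants lay below all 4 wild types. The log2 difference was -1.22 ± 0.59 (unadjusted p = 0.0533, edgeR adjusted p = 0.973).

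Prodh, the first enzyme of proline breakdown, was at 131, 161, 261 and 209 CPM in wild type and at 41.8, 93.7 and 138 CPM in untreated mutants. The groups overlapped by 1 mutant. Its log2 difference was -1.06 ± 0.53 (edgeR adjusted p = 0.973).

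Ass1 and Asl form and split argininosuccinate, the middle of the urea cycle. Ass1 was at 3747, 3445, 6850.5 and 4175 CPM in wild type and at 1573, 3531 and 3969 CPM in untreated mutants, a log2 difference of -0.59 ± 0.35. Asl was at 449.7, 389.8, 1058 and 636 CPM in wild type and 215, 462 and 467 CPM in mutants, a difference of -0.73 ± 0.45. In both genes wild type replicate 3 was the highest and mutant replicate 2 the lowest of these 7 libraries. Without mutant replicate 2 the differences were -0.28 for Ass1 and -0.45 for Asl, and without wild type replicate 3 they were -0.32 and -0.37. The other urea cycle genes were near 0: Cps1 (-0.16 ± 0.39), Otc (0.04 ± 0.42), Arg1 (0.01 ± 0.37) and Nags (0.02 ± 0.31).

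Hgd, which opens the ring of homogentisate in tyrosine breakdown, was at 656, 551, 842 and 783 CPM in wild type and at 309.8, 649 and 559.5 CPM in mutants. The difference of -0.48 ± 0.32 was -0.23 without mutant replicate 2. Hpd, the step before, was at 1810.5, 1381, 2605 and 2664 CPM in wild type and 720.4, 1752 and 1670.0 CPM in mutants. Here too the lowest value was in mutant replicate 2, while the other 2 mutants lay within the wild-type range.

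In 5 genes (Tat, Sardh, Ivd, Bckdha and Bckdhb) every untreated mutant lay below every wild type, which is 12.8% of the 39 against 3.82% of all genes. The reverse, all mutants above all wild types, held for 0 of 39, against 2.5%. Of these 5 genes 3 act on branched-chain amino acids: Bckdha and Bckdhb encode the E1 subunits of the branched-chain ketoacid dehydrogenase, and Ivd the next step of leucine breakdown. Bckdhb was at 222, 284, 261 and 224 CPM in wild type and at 197, 196 and 201 CPM in mutants, a small and even gap (-0.32 ± 0.22, edgeR adjusted p = 0.973). Ivd had a mean of 131 ± 18.1 CPM (SD, n = 4) in wild type and 96.2 ± 4.83 CPM (n = 3) in mutants, and Sardh, which demethylates sarcosine, 389 ± 94.5 and 239.6 ± 25.3 CPM.

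Other values moved beside the genotype difference. Without mutant replicate 2 the median of the 39 genes was -0.10, with 24 on the negative side, and without wild type replicate 4 it was -0.17. In mutant replicate 2 the summed acute phase markers stood at 91869 CPM and the bile duct markers at 1466 CPM, against 8386 to 47355 CPM and 50.3 to 250.5 CPM in wild types. The summed periportal markers (6 of 6 measured) were 1179 to 1355 CPM in the 3 untreated mutants and 1794 to 2402 CPM in wild types, without overlap. By the median log2 level of these markers relative to wild type the groups overlapped. Mutant replicate 2 was at -0.186, above wild type replicates 1 (-0.194) and 2 (-0.192). Of these 6 markers 2, Sds and Hal, are themselves amino acid breakdown genes. The part of these in the differences was not tested.

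**Figure D1:**
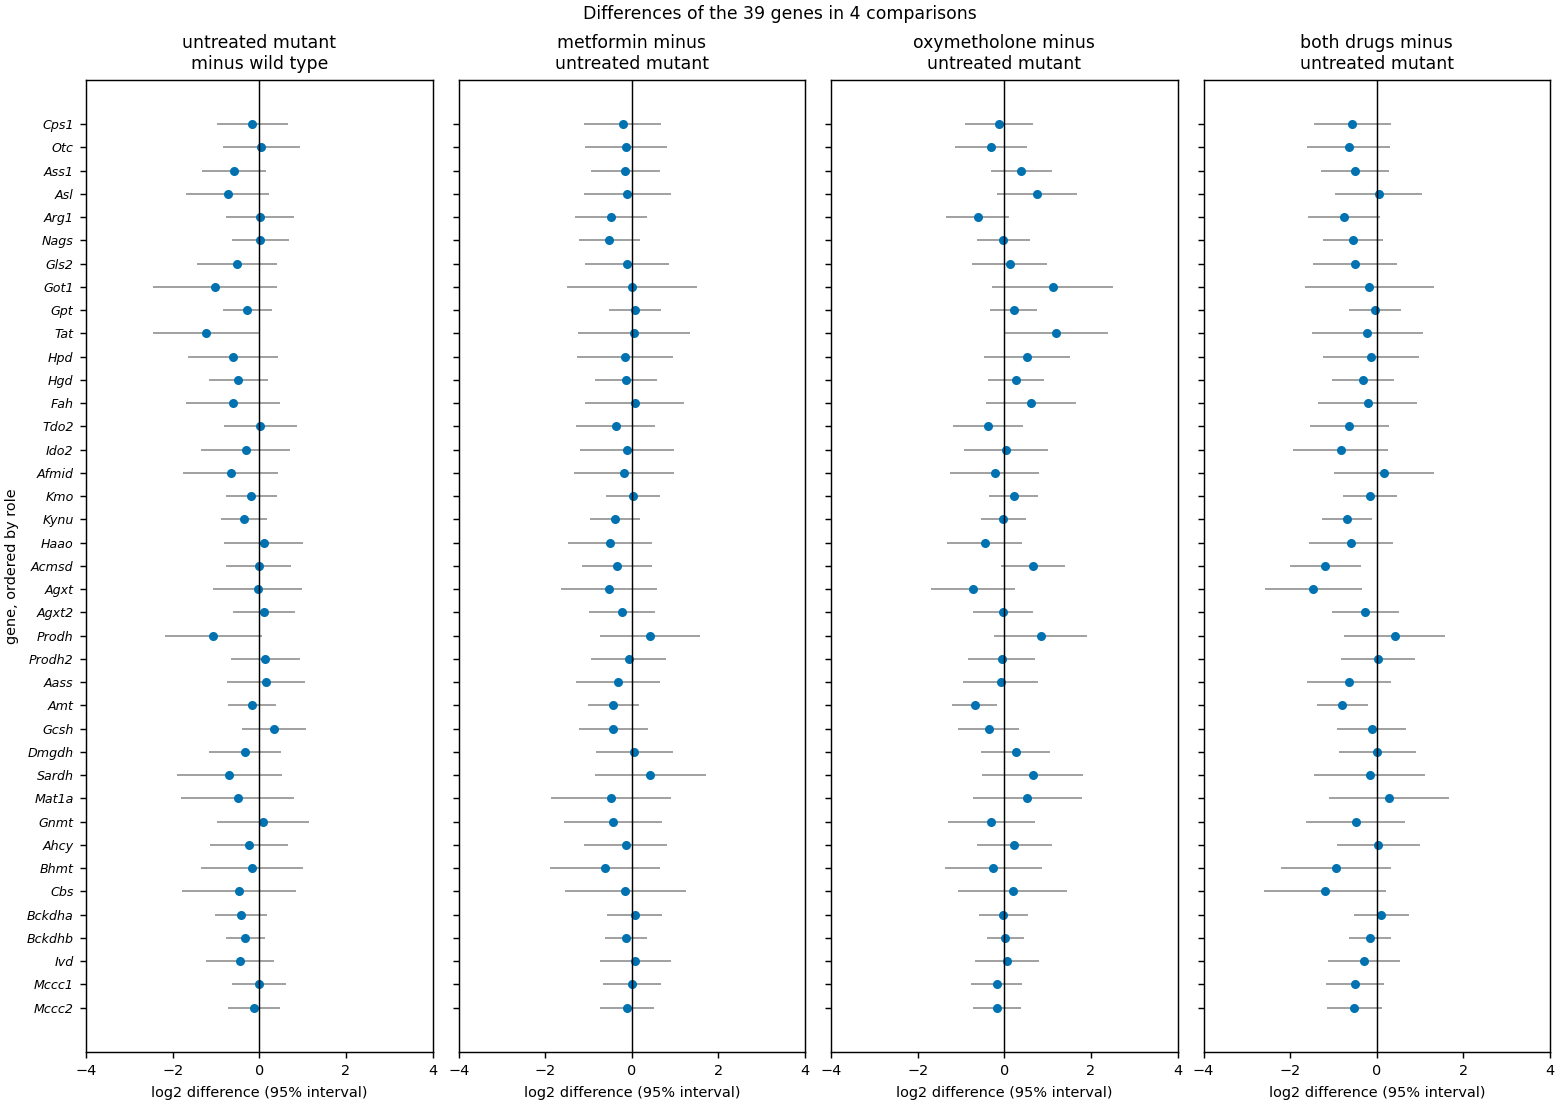
Log2 differences of the 39 genes in 4 comparisons (points, edgeR estimate; lines, 95% interval; n = 3 to 5 libraries per group; genes in rows ordered by role). Most points of the genotype, metformin and combination panels lie left of 0, and the intervals leave out 0 for 1 gene with oxymetholone (Amt) and for 4 with both drugs (Kynu, Acmsd, Agxt and Amt).

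Metformin alone, compared with untreated mutants, gave small differences. Of the 39 genes 29 had a negative log2 difference (74.4%, against 46.1% of all genes), with a median of -0.14 against 0.04 for all genes, and the values ran from -0.62 to 0.42. None was called (0%), and 0 of 39 had an unadjusted p under 0.05, against 5.67% of all genes. All 6 urea cycle and all 5 methionine genes were on the negative side, with medians of -0.18 and -0.44. The tyrosine genes were split, 2 and 2.

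Nags makes N-acetylglutamate, the activator of carbamoyl phosphate synthetase. It was at 91.6, 77.9 and 66.7 CPM in untreated mutants and at 56.7, 57.0 and 51.2 CPM with metformin, without overlap, and at 69.3, 66.6, 90.0 and 84.0 CPM in wild type. The log2 difference was -0.52 ± 0.33 (unadjusted p = 0.134, edgeR adjusted p = 0.927). Nags and Bckdhb were the 2 genes of 39 (5.13%) in which every metformin library lay below every untreated mutant, against 3.32% of all genes, and 0 lay above (3.94% of all genes). In Bckdhb this was nearly a tie, at 195.79 CPM in the highest metformin library and 195.87 CPM in the lowest mutant.

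Arg1, which releases urea from arginine, was at 2207, 2977 and 3825 CPM in untreated mutants and at 2917, 1649 and 1842 CPM with metformin. Metformin replicate 1 lay among the mutants and the other 2 lay below them. The difference was -0.49 ± 0.39, -0.78 without metformin replicate 1 and -0.28 without mutant replicate 4.

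Gcsh, the carrier protein of the glycine cleavage system, was at 121, 276 and 309.9 CPM in untreated mutants and 278, 109 and 139 CPM with metformin. Both groups held high and low libraries, and the difference of -0.43 ± 0.38 ran from -0.92 without metformin replicate 1 to -0.17 without metformin replicate 3. Mutant replicates 2 and 4 also moved it, to -0.74 and -0.18.

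Several libraries moved the metformin median. It was -0.39 without mutant replicate 2, -0.05 without mutant replicate 3, -0.03 without mutant replicate 4, -0.25 without metformin replicate 1 and -0.01 without metformin replicate 4. In metformin replicate 4 the 39 genes lay at a median of -0.80 on the log2 scale relative to wild type. The hepatocyte markers of that library lay at -0.88 and the proliferation markers at 1.998. Metformin replicate 3 had 685 CPM of bile duct and 524 CPM of stellate cell markers, against 35.2 and 194.6 CPM in metformin replicate 1. The part of these in the differences was not tested.

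Oxymetholone alone did not shift the 39 genes in one direction. The split was 20 with a positive and 19 with a negative log2 difference (48.7% negative, against 47.1% of all genes), and the median was 0.03, against 0.03 for all genes. It ran from -0.03 without mutant replicate 2 or oxymetholone replicate 3 to 0.11 without mutant replicate 4. None was called, against 0.0434% of all genes, and 1 of 39 had an unadjusted p under 0.05 (2.56%, against 4.8%). In 0 of 39 genes were the oxymetholone libraries all above or all below the untreated mutants, against 1.87% and 1.59% of all genes. By role, the 4 tyrosine genes (median 0.57) and the 3 genes of glutamine and transamination (median 0.22) all had positive differences, the reverse of their sign in the genotype comparison. Both comparisons use the same 3 untreated mutants, so the opposite signs share those libraries.

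Amt, the aminomethyltransferase of the glycine cleavage system, was the 1 gene with an unadjusted p under 0.05. It was at 71.4, 107 and 87.7 CPM in untreated mutants and at 76.8, 61.1, 53.1, 36.5 and 48.0 CPM with oxymetholone. Oxymetholone replicate 1 lay above the lowest mutant, and the other 4 lay below all mutants. The log2 difference was -0.69 ± 0.25 (unadjusted p = 0.0127, edgeR adjusted p = 0.877). Against wild type, with 109, 78.3, 96.0 and 116 CPM, the 5 oxymetholone libraries were all lower, with a difference of -0.86 ± 0.23 (unadjusted p = 0.00168, edgeR adjusted p = 0.34).

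Tat with oxymetholone was at 628, 207, 907, 1394 and 1056 CPM, so 4 of 5 libraries lay above the highest untreated mutant and replicate 2 lay below the lowest. The log2 difference was 1.20 ± 0.57 (unadjusted p = 0.0512, edgeR adjusted p = 0.877). Got1, the cytosolic aspartate transaminase, was at 92.6, 167 and 121 CPM in untreated mutants and at 143, 42.8, 403, 511 and 273 CPM with oxymetholone (1.12 ± 0.66, edgeR adjusted p = 0.877), and at 192, 161, 401 and 273 CPM in wild type. With oxymetholone 3 libraries lay above the highest untreated mutant, replicate 1 lay within the mutant range and replicate 2 below it.

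Of the 5 oxymetholone libraries, replicate 4 had summed acute phase markers of 173458 CPM, against 6561 to 13152 CPM in the others, and replicate 3 had 8.19% of its counts in mitochondrial genes, against 1.54% to 3.89% in all other libraries. These 2 libraries held the highest oxymetholone values of Tat, Got1 and Asl (replicate 4) and of Hpd and Fah (replicate 3, at 3155 and 956 CPM). Without replicate 3 the median of the 4 tyrosine genes was 0.23 and that of the 3 genes of glutamine and transamination 0.18, of which 1 was then negative. Without replicate 4 these medians were 0.55 and 0.26. Tat was at 1.16 without replicate 3 and 0.94 without replicate 4, and Got1 at 0.92 and 0.77. The part of the acute phase and mitochondrial counts in these differences was not tested.

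In the urea cycle, Arg1 and Asl had differences of opposite sign. Arg1 was at 2795, 1757, 1477, 2477 and 1294 CPM with oxymetholone, a log2 difference of -0.62 ± 0.35 that was -0.40 without mutant replicate 4. Asl was at 465, 385, 621, 967 and 776 CPM, a difference of 0.75 ± 0.44 that was 0.47 without mutant replicate 2. Ass1 was at 4868, 2993, 4247, 3611 and 4159.9 CPM, which overlaps the mutants. Nags was at 54.7, 43.5, 115, 112 and 62.1 CPM in the 5 libraries, a wider span than in any other group.

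Compared with wild type, oxymetholone mutants had 29 of 39 genes on the negative side (74.4%, against 48.3% of all genes), with a median of -0.21 that was -0.08 without wild type replicate 3. None was called, against 0.0993% of all genes, and 1 of 39 had an unadjusted p under 0.05 (2.56%, against 4.51%). Bckdha and Amt were lower in all 5 oxymetholone libraries than in all wild types (5.13% of the 39, against 1.11%), and 0 genes were higher (0.987%). Bckdha was at 33.1, 24.6, 30.7, 33.6 and 30.9 CPM against 37.4, 37.6, 38.4 and 52.7 CPM.

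**Figure D2:**
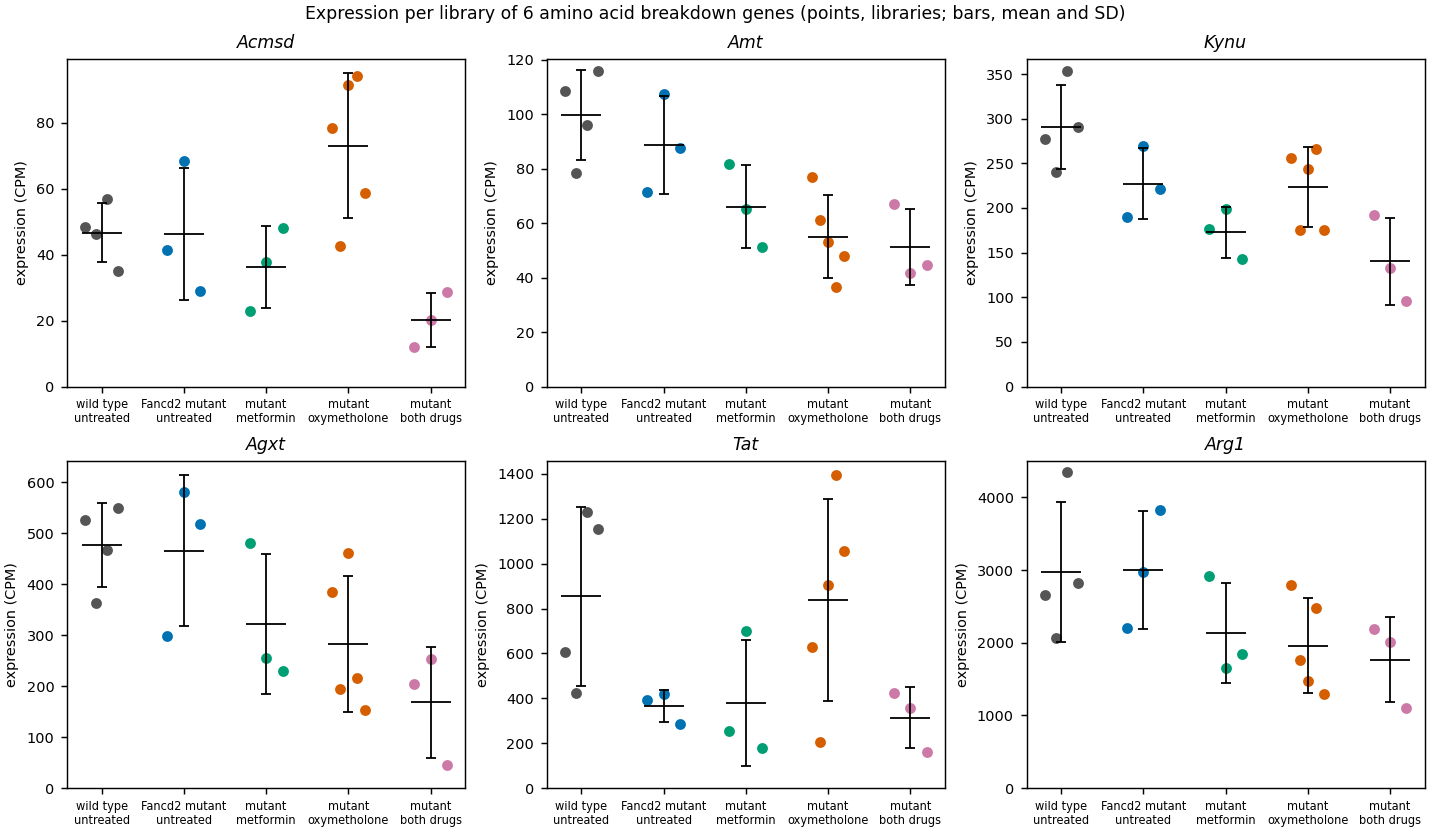
CPM of Acmsd, Amt, Kynu, Agxt, Tat and Arg1 in the 5 groups (points, libraries; horizontal bars with whiskers, mean and SD; each axis starts at 0). Acmsd is between 42.7 and 94.1 CPM with oxymetholone and between 11.9 and 28.5 CPM with both drugs, and Tat spans 207 to 1394 CPM with oxymetholone.

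With both drugs, 31 of the 39 genes had a lower level than in untreated mutants (79.5%, against 49.6% of all genes), with a median log2 difference of -0.32 against 0.00 for all genes. None was called, against 0.0186% of all genes, and 4 of 39 (10.3%) had an unadjusted p under 0.05, against 5.46%. Without combination replicate 3 the count was 22 of 39 and the median -0.06. Without combination replicate 1 or 2 the median was -0.50 or -0.60. The 4 genes with the smallest p are therefore given with and without that library.

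Acmsd diverts an intermediate of the kynurenine pathway away from NAD synthesis. It was at 41.3, 68.4 and 29.0 CPM in untreated mutants, at 23.1, 37.6 and 48.0 CPM with metformin, at 78.5, 42.7, 91.5, 94.1 and 58.6 CPM with oxymetholone, and at 11.9, 20.1 and 28.5 CPM with both drugs. Wild types were at 48.4, 46.4, 56.8 and 35.1 CPM. The 3 combination libraries were below every wild type, untreated mutant and oxymetholone library. Their highest value, 28.5 CPM, was only just under the lowest untreated mutant, 29.0 CPM. Combination replicate 3 was the highest of the 3, so this gene did not follow that library's general pattern.

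The log2 difference of Acmsd was -1.19 ± 0.39 with both drugs (unadjusted p = 0.00694, edgeR adjusted p = 0.798) and -1.53 without combination replicate 3. It was -0.80 without mutant replicate 3, the highest of the untreated mutants. The interaction, which tests whether the differences of the drugs add up on the log2 scale, was -1.50 ± 0.52 for Acmsd (unadjusted p = 0.0102, edgeR adjusted p = 0.863). Averaged over both levels of oxymetholone, metformin gave -1.10 ± 0.26 (95% interval -1.65 to -0.55, unadjusted p = 0.000622, edgeR adjusted p = 0.548). This average ran from -1.27 without combination replicate 3 to -0.90 without mutant replicate 3. For this average DESeq2 gave an adjusted p of 0.0411, and 0.175% of all genes were called by DESeq2. In the authors' deposited table the log2 fold change of Acmsd between both drugs and oxymetholone was -1.85, with an adjusted p of 0.731.

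Amt was at 67.2, 41.7 and 44.5 CPM with both drugs and at 81.8, 65.4 and 51.1 CPM with metformin. All 3 combination libraries lay below all 3 untreated mutants, with a log2 difference of -0.80 ± 0.28 (unadjusted p = 0.0118, edgeR adjusted p = 0.817). It was -0.71 without combination replicate 3. Averaged over both levels of metformin, the oxymetholone difference of Amt was -0.53 ± 0.19 (unadjusted p = 0.0118, edgeR adjusted p = 0.686). For the partner protein Gcsh, at 192, 256 and 204 CPM with both drugs, the combination difference was -0.12 ± 0.38.

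Agxt, which detoxifies glyoxylate in peroxisomes, was at 299, 581 and 519 CPM in untreated mutants, at 480.3, 256 and 229 CPM with metformin, at 385, 195, 462, 216 and 153 CPM with oxymetholone and at 205, 254 and 45.8 CPM with both drugs. Wild types were at 527, 364, 468 and 549.8 CPM. Every library with both drugs lay below every untreated mutant and wild type. The log2 difference was -1.47 ± 0.53 (unadjusted p = 0.0133, edgeR adjusted p = 0.821) and -1.02 without combination replicate 3. Averaged over both levels of metformin, the oxymetholone difference of Agxt was -0.83 ± 0.35 (edgeR adjusted p = 0.882). In the authors' deposited table Agxt had the smallest adjusted p of the 39 genes for both drugs against untreated mutants, 0.0527, with a log2 fold change of -1.14.

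Kynu cleaves kynurenine and hydroxykynurenine. It was at 190.1, 269 and 222 CPM in untreated mutants, 176, 199 and 143 CPM with metformin, and 192, 132 and 96.2 CPM with both drugs, against 256, 176, 244, 266 and 175 CPM with oxymetholone and 277, 241, 354 and 291 CPM in wild type. The log2 difference with both drugs was -0.70 ± 0.27 (unadjusted p = 0.0211, edgeR adjusted p = 0.861) and -0.49 without combination replicate 3. Averaged over both levels of oxymetholone, metformin gave -0.53 ± 0.18 (unadjusted p = 0.0101, edgeR adjusted p = 0.584) for Kynu.

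In 5 genes (12.8%, against 3.95% of all genes) every combination library lay below every untreated mutant: Arg1, Acmsd, Agxt, Ido2 and Amt. The reverse held for 0, against 4.71%. Arg1 was at 2188, 2010.5 and 1097 CPM with both drugs (-0.77 ± 0.39, or -0.52 without replicate 3), so its highest value was only just under the lowest mutant. Ido2, a liver dioxygenase of tryptophan, was at 56.9, 59.5 and 65.0 CPM in untreated mutants and at 43.8, 48.6 and 9.31 CPM with both drugs (-0.84 ± 0.52, or -0.39 without replicate 3). In Ido2 the distance to the mutants was small in the first 2 libraries and large in replicate 3.

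The most abundant genes of the other roles followed replicate 3. Tdo2, the main hepatic enzyme that opens the ring of tryptophan, was at 1646, 2576 and 2398 CPM in untreated mutants and 1794, 1998 and 457 CPM with both drugs. Aass, which starts lysine breakdown, was at 275, 479 and 520.4 CPM against 313, 394 and 113 CPM. Dmgdh, a dimethylglycine dehydrogenase of choline breakdown, was at 239, 344 and 418 CPM against 458, 430.4 and 122 CPM. In all 3 genes the first 2 combination libraries lay within or above the range of the untreated mutants.

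Gnmt was at 2059, 5542 and 7486 CPM in untreated mutants and at 5025, 4485 and 1229 CPM with both drugs. Gpt, the alanine transaminase, was at 165, 294 and 327 CPM against 284, 323 and 160.0 CPM, and Hpd was at 1661, 1739 and 383 CPM with both drugs. For these genes the combination differences were -0.49 ± 0.54, -0.03 ± 0.28 and -0.13 ± 0.52, and without replicate 3 they were -0.08, 0.22 and 0.30.

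The values of these genes in the groups not yet named overlapped throughout. Tdo2 was at 2699.8, 1766, 1984 and 2246 CPM in wild type, 2155, 1377 and 1563 CPM with metformin, and 2406, 1840.3, 1161, 1756 and 1373 CPM with oxymetholone. Gnmt was at 5539.6, 3550.0, 6104 and 3867 CPM in wild type, 5983, 2277 and 2868 CPM with metformin, and 5533, 5193, 3476, 3259.9 and 3006 CPM with oxymetholone. Gpt was at 283, 342, 340.0 and 309 CPM in wild type, 285, 236 and 307 CPM with metformin, and 299, 259, 336, 269 and 359 CPM with oxymetholone, the narrowest span of these genes.

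Aass was at 437, 278, 467 and 354 CPM in wild type, 509.7, 267 and 246 CPM with metformin, and 388, 384, 230.1, 692 and 305 CPM with oxymetholone. Dmgdh was at 377, 409, 422 and 468 CPM in wild type, 427, 371 and 243 CPM with metformin, and 376, 614, 444, 223 and 343 CPM with oxymetholone. Hpd was at 1526, 1457 and 736 CPM with metformin and 1722, 1095, 3155, 2090.5 and 1867 CPM with oxymetholone, and Hgd at 487, 511 and 383 CPM and 549, 422, 843, 553 and 691 CPM in the same groups. Metformin replicate 4 was the lowest metformin library for each of these 4 genes.

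Prodh was at 124, 158 and 85.1 CPM with metformin, 133, 81.1, 258, 156 and 187 CPM with oxymetholone, and 182, 153 and 29.9 CPM with both drugs. Tat was at 255, 700.4 and 180.5 CPM with metformin and 422, 358 and 160.0 CPM with both drugs. Asl was at 401, 360.5 and 304 CPM with metformin and 542, 484 and 154 CPM with both drugs, and Ass1 at 2857, 2718 and 2615 CPM and 2142, 2828 and 1453 CPM. Among these 4 genes replicate 3 was again the lowest combination library.

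Hgd was at 453, 519 and 241 CPM with both drugs, and Nags at 67.4, 58.1 and 36.7 CPM. Bckdhb was at 179, 164 and 196 CPM with metformin, 195, 164, 193, 247 and 209.7 CPM with oxymetholone and 208, 209 and 119 CPM with both drugs. Gcsh was at 252, 157, 175 and 168 CPM in wild type and 229, 243, 145, 143 and 157 CPM with oxymetholone. Arg1 in wild type was at 2662, 2071, 4342 and 2825 CPM, a range that contains all 3 untreated mutants.

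The remaining 20 genes had log2 differences with both drugs from -1.20 (Cbs, which condenses homocysteine with serine) to 0.27 (Mat1a), and none had an unadjusted p under 0.05 in any of the 4 comparisons. Without combination replicate 3 these 2 differences were -0.89 and 0.77. Bhmt, which remethylates homocysteine with betaine, was at 4496, 996 and 479 CPM with both drugs, and Mat1a at 4636, 1919 and 429 CPM. These 2 had the widest spans among the combination libraries, 9.38 and 10.8 times from lowest to highest. Fah, Haao, Kmo, Otc and Cps1 lay within the range of the other groups in combination replicates 1 and 2, and replicate 3 was the lowest combination library for each of the 5.

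Combination replicate 3 lay at a median of -1.76 for the 39 genes on the log2 scale relative to the wild-type mean, while the other 17 libraries lay between -0.80 and 0.18 and the median of all genes was 0.00 in it. Tyrosine genes (-2.32) and methionine genes (-2.58) were lowest, and urea cycle genes were at -1.49. The same library had 676 CPM of bile duct markers and 708 CPM of stellate and fibroblast markers, against 52.5 to 88.7 and 210.0 to 213 CPM in the other 2 combination libraries. Proliferation markers summed to 41.6 CPM, against 3.42 and 4.996 CPM. Hepatocyte markers were at a median of -0.97, periportal markers at -2.56 and pericentral markers at -1.08 on the log2 scale. The part of these in the combination differences was not tested.

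**Figure D3:**
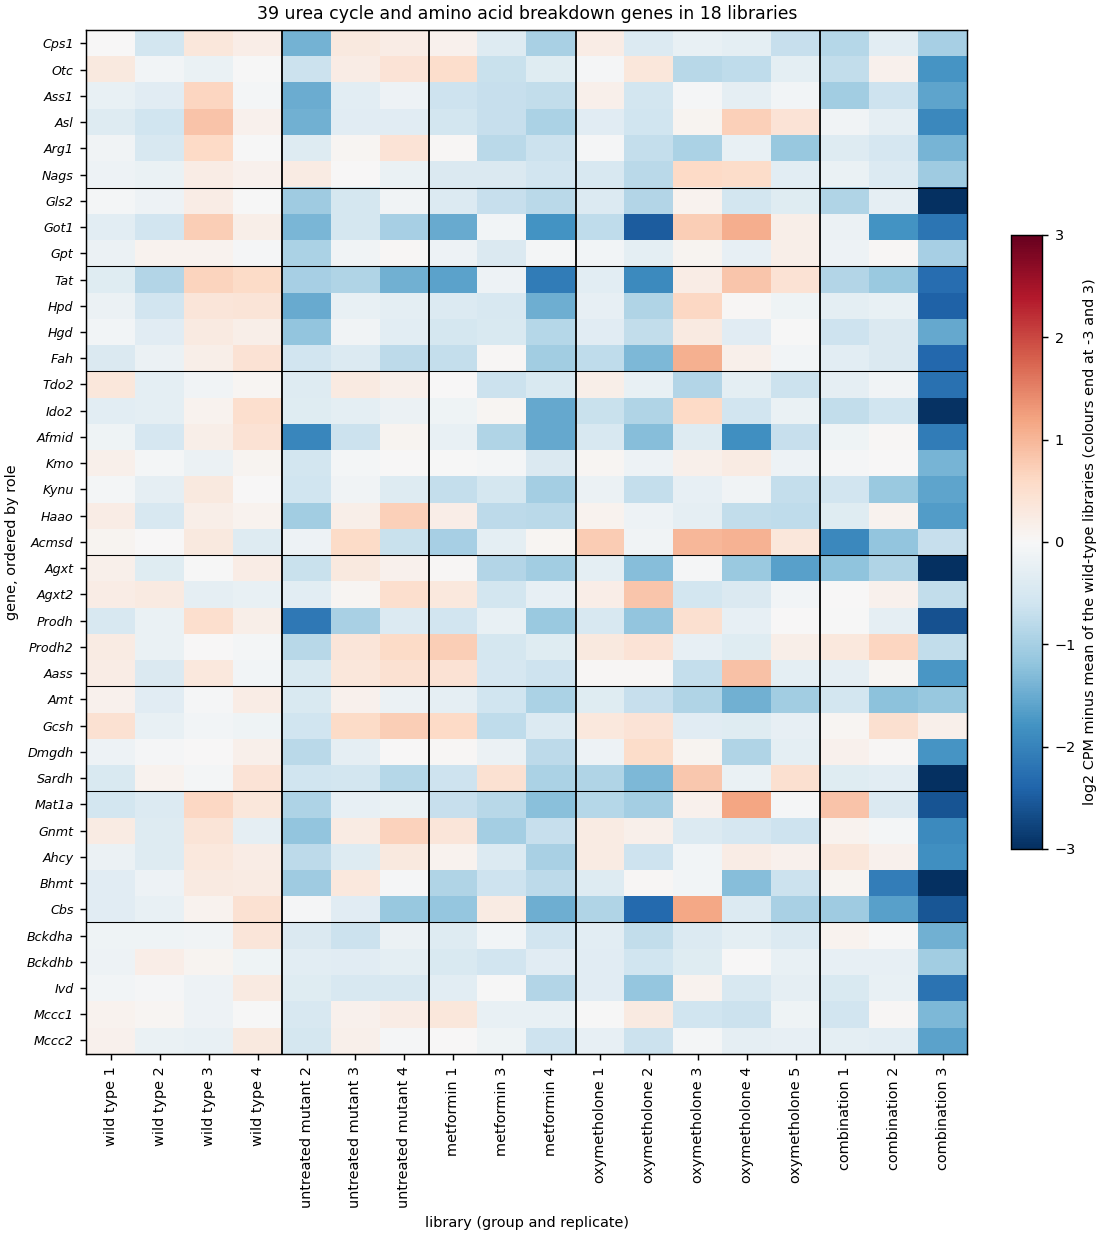
Log2 CPM of the 39 genes (rows, ordered by role with thin lines between roles) in the 18 libraries (columns, grouped) minus the mean of the 4 wild-type libraries; blue is lower and red higher. The column of combination replicate 3, at a median of -1.76, is the darkest blue, and Acmsd and Gcsh are among the rows that do not share it.

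**Figure D4:**
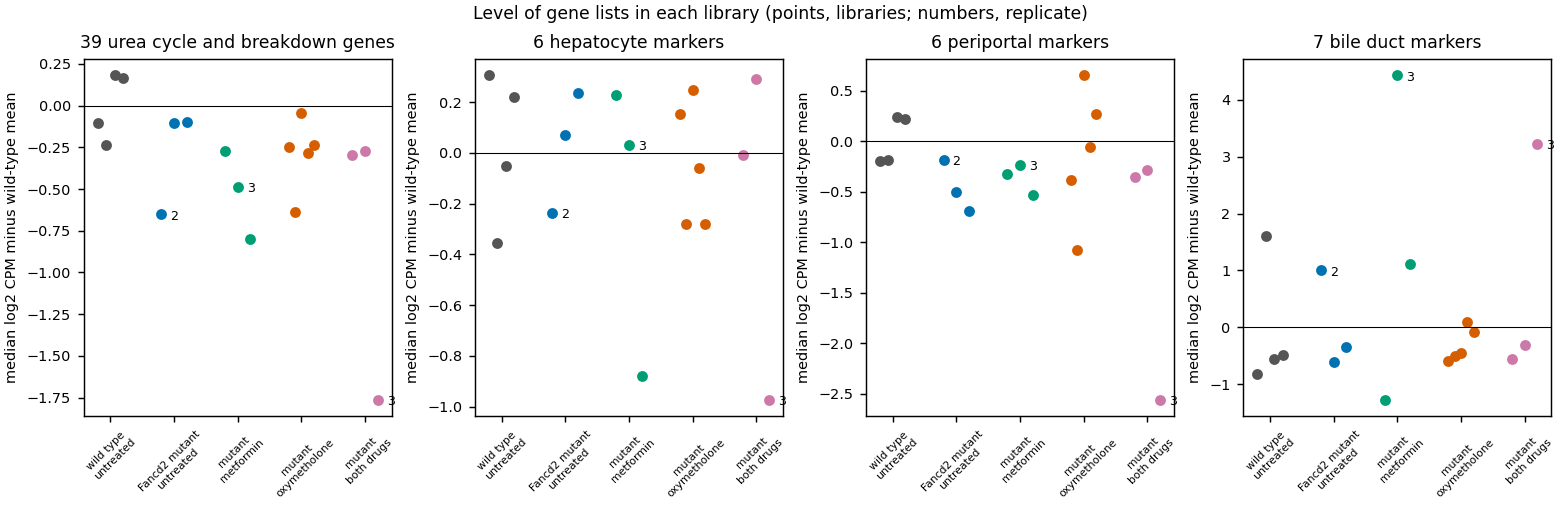
Median log2 CPM relative to the wild-type mean in each library (points, coloured by group) for the 39 genes, 6 hepatocyte markers, 6 periportal markers and 7 bile duct markers; the vertical scales differ between panels. Combination replicate 3 is at -1.76, -0.97, -2.56 and 3.23 in the 4 panels.

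The metformin difference averaged over both levels of oxymetholone was negative for 36 of 39 genes (92.3%, against 48.7% of all genes), with a median of -0.32 against 0.01. None was called (0%), and 3 (Acmsd, Kynu and Nags, 7.69%) had an unadjusted p under 0.05, against 6.17% of all genes. Without combination replicate 3 the median was -0.14 and the count 30 of 39. The oxymetholone difference averaged over both levels of metformin was negative for 21 genes (53.8%, against 52.3%), with a median of -0.03 that ran from -0.13 without mutant replicate 2 to 0.08 without combination replicate 3. None was called, against 0.124% of all genes, and 2 (Amt and Agxt, 5.13%) had an unadjusted p under 0.05, against 5.04%.

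For the interaction 29 of 39 genes were on the negative side (74.4%, against 52.7% of all genes), with a median of -0.24. None was called (0%), and Acmsd alone had an unadjusted p under 0.05 (2.56%, against 3%). Without combination replicate 3 the median was 0.08, with 19 on the negative side, so this direction changed with 1 library, and limma-voom with quality weights gave a median of 0.26. Mutant replicate 2 (-0.08) and metformin replicate 1 (-0.12) also brought the median nearer to 0 when left out. It moved away from 0 without mutant replicate 3 (-0.40), mutant replicate 4 (-0.42), metformin replicate 4 (-0.41), combination replicate 1 (-0.43) or combination replicate 2 (-0.53).

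A single test of any difference among the 5 groups called none of the 39 genes, against 0.18% of all genes. Of the 39, 5 had an unadjusted p under 0.05 (12.8%, against 5.8%): Acmsd, Amt, Kynu, Tat and Ass1. Their edgeR adjusted p were 0.187, 0.299, 0.387, 0.817 and 0.84. DESeq2 called 2 of the 39, Acmsd (adjusted p = 0.00572) and Amt (adjusted p = 0.0469), against 1.91% of all genes, and limma-voom called Acmsd (adjusted p = 0.038), against 0.298%.

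Among 58 of 60 other genes of amino acid breakdown that were measured (Arg2 and Tdh were not), none was called in any of the 9 tests. Of all genes, 0% to 0.18% were called, depending on the test. Below 0 were 37 genes in the genotype comparison (median -0.20), 37 with metformin (-0.12), 33 with oxymetholone (-0.05) and 42 with both drugs (-0.22). Of all genes, 52.2%, 46.1%, 47.1% and 49.6% were below 0 in these comparisons. Glul makes glutamine from ammonia around the central vein. It had the smallest p of these 58 genes in the genotype, oxymetholone and combination comparisons and in the averaged oxymetholone difference. Its mean was 734 ± 224 CPM (SD, n = 4) in wild type, 357 ± 75.5 CPM (n = 3) in untreated mutants, 582 ± 242 CPM (n = 3) with metformin, 742 ± 192 CPM (n = 5) with oxymetholone and 785 ± 141 CPM (n = 3) with both drugs. The log2 difference was -1.04 ± 0.33 for genotype (edgeR adjusted p = 0.973), 1.05 ± 0.32 for oxymetholone (edgeR adjusted p = 0.648) and 1.14 ± 0.35 for both drugs (edgeR adjusted p = 0.776). Averaged over both levels of metformin, the oxymetholone difference of Glul was 0.74 ± 0.23 (edgeR adjusted p = 0.544). All of these comparisons share the 3 untreated mutants.

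Gldc, which holds the decarboxylase of the glycine cleavage system to which Amt belongs, was at 179 ± 46.0 CPM (SD, n = 4) in wild type, 137 ± 12.2 CPM (n = 3) in untreated mutants and 76.1 ± 42.9 CPM (n = 3) with both drugs (-0.84 ± 0.36, unadjusted p = 0.0314, edgeR adjusted p = 0.881). Gcat, of threonine breakdown, was at 42.7 ± 23.1 CPM in untreated mutants and 14.8 ± 8.11 CPM with both drugs (-1.53 ± 0.51, edgeR adjusted p = 0.8). Without combination replicate 3 these differences were -0.60 for Gldc and -1.26 for Gcat, and 27 of the 58 genes lay below 0, with a median of 0.04. Combination replicate 3 was the lowest of all libraries for 41 of these 58 genes, against 13.9% of all genes.

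Regulators known to act on these enzymes were measured in 11 of 12 cases (Gcg was not). None was called in any of the 9 tests, against 0% to 0.18% of all genes. In the genotype comparison 10 of 11 had negative differences (against 52.2% of all genes), with a median of -0.40. Cebpb, a transcription factor of the C/EBP family that acts in the fasting and acute phase responses, had the smallest p with oxymetholone. It was at 25.9 ± 2.35 CPM (SD, n = 3) in untreated mutants and 58.2 ± 28.1 CPM (n = 5) with oxymetholone (1.17 ± 0.41, unadjusted p = 0.0118, edgeR adjusted p = 0.877). With both drugs Cebpb was at 26.3 ± 11.6 CPM (n = 3). The 5 oxymetholone libraries include replicate 4, with summed acute phase markers of 173458 CPM. The part of the acute phase in the Cebpb difference was not tested.

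In the authors' deposited table none of the 39 genes passed an adjusted p of 0.05 in any of 7 comparisons. Of all 16115 genes, 47 passed it for oxymetholone against untreated mutants and 0 in each other comparison. The deposited directions of all genes were not counted here. The deposited directions gave 36 of 39 genes lower in untreated mutants than in wild type, 19 lower with metformin, 13 with oxymetholone and 26 with both drugs, against 29, 29, 19 and 31 here.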

How the data were processed

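Liver RNA-seq of 18 of 20 labelled samples in 5 groups was used, from total RNA extracted with a column kit, per the labels. The submitters' processing notes name the genome build GRCm39; the aligner, the counting program and the annotation are not stated in the sources used here. The authors deposited 1 table of 16115 genes. Its counts are whole numbers per gene and library without normalization, per the file headers. A deposited signal column per library holds scaled CPM and equals the counts over TMM-scaled library size to within a relative difference of 5e-15. Deposited log2 residuals were not used, and the authors' log2 fold changes and p-values for 7 comparisons, made by a test not stated here, were read only where their table is named.

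All other values were computed from the counts. edgeR 4.0.16 (R 4.3.3) was run with TMM scaling, filterByExpr, which removed no gene, and a quasi-likelihood model of the 5 groups with robust estimation on all 18 libraries, with Benjamini-Hochberg adjustment over 16115 genes and a threshold of 0.05. The biological coefficient of variation was 0.426. The procedure was also run on simulated data. The outcome is not reported here, so it says nothing on how small a difference could be called. Log2 CPM relative to wild type used a prior count of 2. Levels per kilobase used the union of exons in GENCODE M21. Depth was 20.2 to 32.7 M counts per library.

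The members, role groups, marker lists, tests and alternatives were chosen with earlier results of these data known. Values in every library are given for the 5 members with the smallest p in each of the first 4 comparisons and the most abundant member of each role group. Other members with values printed for some groups (Got1, Bckdha, Ido2, Bhmt, Mat1a and Fah) were chosen after their values were seen. Replicates were numbered in the order of the records. Alternatives were DESeq2 1.42.0, edgeR scaled by DESeq2's size factors, all genes unfiltered, only genes whose mean CPM reached 1, only the libraries of the compared groups in the fit, limma-voom (limma 3.58.1) with weights for library quality, and each library left out in turn. Leaving out metformin replicate 3 with combination replicate 3 was added after the data were seen.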

Additional observations from a re-analysis of the deposited data

How the results depend on the processing

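The count of called members was 0 in every test under edgeR, and it was also 0 in the genotype, metformin, oxymetholone, combination, interaction and average-oxymetholone tests and in oxymetholone against wild type under all alternatives run. DESeq2 called 1 member for the average metformin difference (Acmsd) and 2 for any difference among groups (Acmsd and Amt), and limma-voom called 1 for any difference (Acmsd). Of 698 recomputed values for 28 single-gene results, 694 kept their direction and side of the threshold, 4 passed it only under the alternative and 0 reversed. Most of these results were picked for a small p in the same data, and none was called in the main fit. Little change of sign or side could therefore be seen. The fit of all genes unfiltered repeated the main fit, since filterByExpr removed no gene. The adjusted p of Acmsd for any difference ran from 0.00572 to 0.405 over the alternatives, and that for the average metformin difference from 0.0411 to 0.99996.

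The interaction depended most on the processing. The number of members below 0 was 11 under limma-voom with quality weights and 18 without metformin replicate 3 and combination replicate 3, against 29, and it ran from 19 to 33 when 1 library was left out. Its median was 0.26 under limma-voom, against -0.24, and ran from -0.53 to 0.08 with 1 library left out. Without 1 library, members below 0 numbered 24 to 36 for genotype, 21 to 33 for metformin, 13 to 21 for oxymetholone, 22 to 39 for the combination, 16 to 30 for average oxymetholone, 30 to 38 for average metformin and 26 to 35 for oxymetholone against wild type. The metformin median was -0.44 under limma-voom, and the combination median -0.07 without both libraries that stood apart. The cause of these shifts was not tested. No paired analysis was possible because the labels carry no replicate numbers. Depth did not limit the members, whose counts were at least 149.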

Other observations

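Enzymes of neighbouring steps often varied together between libraries, but the members as a whole also move together in a library. Pairs of members that are not neighbours were not examined, and the p-values below test only against no correlation. Whether neighbouring steps varied together more than other members was therefore not tested. Over the 18 libraries, 20 pairs of neighbouring steps or subunits of 1 complex were examined, a list written after the levels had been seen. Pearson's r was above 0 in 19, and 6 pairs had both r and Spearman's rho under 0.05 after Benjamini-Hochberg adjustment over the 20 (permutation tests, two-sided, 100000 resamples). Hpd and Hgd, consecutive steps of tyrosine breakdown, had r = 0.95 and rho = 0.92 (permutation p = 1e-05 for both, the smallest these resamples can give, adjusted p = 0.0002), and r was 0.89 without the 2 libraries farthest from the median. Tat and Hpd had r = 0.77 (permutation p = 7e-05, adjusted 0.000467) and rho = 0.79 (p = 0.00021, adjusted 0.0021), with r = 0.76 without 2 libraries. Ass1 and Asl of the urea cycle had r = 0.82 (permutation p = 5e-05, adjusted 0.000467) and rho = 0.72 (p = 0.00091, adjusted 0.00607), with r = 0.63 without 2 libraries.

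In 11 of the 19 pairs r was smaller by over 1.5 times without combination replicate 3. Among them were 6 of the 13 pairs whose r had an adjusted p under 0.05. These are not the same set as the 6 pairs above whose rho passed too. For Dmgdh and Sardh, which act in turn on dimethylglycine and sarcosine, r was 0.56 (permutation p = 0.0287, adjusted 0.0442) and rho 0.20 (p = 0.431, adjusted 0.479). Without that library r was 0.03, and without the 2 farthest libraries 0.06. For Ahcy and Bhmt r was 0.56 (permutation p = 0.0245, adjusted 0.0408) and rho 0.38 (p = 0.118, adjusted 0.192), with r = 0.02 without the 2 farthest libraries. For Acmsd and Haao, the enzyme that makes its substrate, r was -0.05 (permutation p = 0.843, adjusted 0.843) and rho -0.03 (p = 0.914, adjusted 0.914), and r was -0.12 without the 2 farthest libraries. The groups are pooled in these values, and the libraries share the differences between groups. With each group's mean subtracted, r was -0.41 for Acmsd and Haao, 0.48 for Dmgdh and Sardh and 0.54 for Ahcy and Bhmt. These values within groups were not tested.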
